A study of Mus musculus with 59 samples.

Results

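Heat shock proteins and their DnaJ partners were described in mouse liver across 12 groups of arrays. The members were the 72 genes, of 18193 genes with a platform symbol of their own, whose symbol starts with Hsp or with Dnaja, Dnajb or Dnajc followed by a number or family letter. They are measured by 174 probe sets, and each gene is represented by the one of its probe sets with the highest mean across the 59 arrays. Several probe sets exist for 46 of the 72. The rule used the names and the overall mean, and no comparison between groups, but it was set with earlier results of these data known.

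The arrays hold total RNA from frozen livers of male C57BL/6 mice, labelled by the submitters as biological replicates, with 5 arrays in 11 groups and 4 in the other. Mice of 6 weeks were kept for 2 weeks on their diet before treatment. In the first experiment of 39 arrays, mice ate either AIN-76A, a purified diet, or LRD-5001, a grain-based laboratory chow, for 5 weeks. On each diet a control group received no added arsenite, and the others received sodium arsenite at 10 ppb in the drinking water, at 100 ppb in the water (4 arrays on AIN-76A) or at 10 ppb in the food. In the second experiment of 20 arrays, mice on AIN-76A were injected into the peritoneum 8 hours before collection with saline, with dexamethasone at 1 mg/kg, with sodium arsenite at 1 mg/kg, or with both. Dexamethasone is a synthetic glucocorticoid, and arsenite is a trivalent form of arsenic that binds thiol groups of proteins. Values are log2 intensities, so a difference of 1 is a doubling. In whole liver, fewer cells of a type and less RNA per cell cannot be told apart.

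Chaperones keep other proteins folded. HSP70 proteins bind and release exposed stretches of unfolded protein, DnaJ (HSP40) proteins deliver these clients and drive the ATPase of HSP70, HSP110 proteins exchange its nucleotide, HSP90 finishes the folding of signalling proteins such as the glucocorticoid receptor, and small heat shock proteins hold aggregating proteins. Separate sets work in the cytosol, in the endoplasmic reticulum (ER) of secretory cells such as hepatocytes, and in mitochondria. The transcription factor HSF1 induces the cytosolic set when proteins misfold, and arsenite is a classical inducer of it; the unfolded protein response induces the ER set.

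The promoters below show the letters by which these sets are usually recognised. RefSeq promoter entries (GRCm38.p6) were found for 59 of the 72 members, and the 250 bases before each annotated start were searched on both strands. The heat shock element was searched in its head-to-head form, GAANNTTC, and its tail-to-tail form, TTCNNGAA; each reads the same on both strands, and the forms overlap where 3 units follow each other. The ER stress element and the glucocorticoid response element were searched in their consensus forms. Capitals mark a match, each stretch is 150 bases that end at the base before the start, and the last is a window of 30 bases. Hspa1a and Hspb1 stand for the HSF1 set, Hspa5 and Hsp90b1 for the ER set and Dnaja3 for the change after dexamethasone; the Hspe1 window lies on the side of its start that faces Hspd1.
Hspa1a, chr17:34972157-34972306, minus strand: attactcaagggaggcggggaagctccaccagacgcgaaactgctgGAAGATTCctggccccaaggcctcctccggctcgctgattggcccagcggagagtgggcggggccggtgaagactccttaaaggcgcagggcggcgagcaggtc
Hspb1, chr5:135887769-135887918, plus strand: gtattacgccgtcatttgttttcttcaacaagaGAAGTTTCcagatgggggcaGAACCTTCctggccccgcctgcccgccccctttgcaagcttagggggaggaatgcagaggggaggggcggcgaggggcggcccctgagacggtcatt
Hspa5, chr2:34771940-34772089, plus strand: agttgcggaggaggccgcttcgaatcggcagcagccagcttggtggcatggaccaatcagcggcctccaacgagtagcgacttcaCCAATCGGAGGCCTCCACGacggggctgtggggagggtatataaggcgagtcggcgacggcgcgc
Hsp90b1, chr10:86705445-86705594, minus strand: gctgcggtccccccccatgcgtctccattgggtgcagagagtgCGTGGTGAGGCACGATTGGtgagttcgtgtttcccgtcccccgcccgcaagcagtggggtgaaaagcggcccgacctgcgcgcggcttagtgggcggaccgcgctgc
Dnaja3, chr16:4683920-4684069, plus strand: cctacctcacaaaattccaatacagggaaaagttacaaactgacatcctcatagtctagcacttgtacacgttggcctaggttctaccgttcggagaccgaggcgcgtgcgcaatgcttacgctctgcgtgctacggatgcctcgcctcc
Hspe1, chr1:55088051-55088080, plus strand: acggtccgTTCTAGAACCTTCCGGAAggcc

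A heat shock element in either 2-unit form was present in 14 of the 59 members (23.7%), against 14.5% of the 27025 genes of the table. The members were Dnaja1, Dnaja4, Dnajb4, Dnajb6, Dnajc10, Dnajc27, Hspa1a, Hspa1b, Hspb1, Hspb3, Hspb6, Hspd1, Hspe1 and Hsph1. The 3-unit form, in which a head-to-head pair runs on into a tail-to-tail pair, was present in Hspd1, Hspe1 and Dnajb6, and in 0.514% of all genes. Hspd1 and Hspe1, which encode HSP60 and its lid HSP10, lie head to head, so both matches are the same bases. The ER stress element was present in Hspa5, Hsp90b1 and Dnajc3, and in 0.13% of all genes; in Hsp90b1 the match in the printed stretch lies on the opposite strand. The consensus glucocorticoid response element was in 0 of the 59 and in 0.074% of all genes. Hspa1a and Hspa1b, adjacent copies of the inducible HSP70 gene, differ at 3 of the 250 bases. These are matches of letters and not measured binding.

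The label was checked against its markers. Hspa5 (BiP, the HSP70 of the ER) and Hsp90b1 (GRP94, its HSP90) gave strong signals on every array, with lowest values of 10.36 and 9.10. Hspb1 (HSP27) lay between 5.50 and 9.20. The probe set of Hspa1a had a mean of 2.33, under the median of all probe set means of 2.46, and most of its values were near the bottom of the scale. The inducible HSP70 transcript is therefore read here from Hspa1b, whose probe set had a mean of 6.86; as the copies are near identical, the split of signal between them is uncertain. Of the 72 members, 63 had a mean at or above the median of all probe sets, and the values of the other 9, Hspa1a among them, lie mostly near the bottom of the scale.

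One array in each group lay apart from the rest of its group. With group means removed, the leading principal component took 31.2% of the remaining variance, and on it these 12 arrays scored -0.147 or lower while every other array scored -0.0498 or higher. The lowest array of each group on this component was taken, and the sign of the component was set to follow the upper quartile. The upper quartile of these 12 arrays was lower by 0.267 on average, in part by that choice. Of the 72 members, 50 were lower in them, and the share over all probe sets is not given here. The shift reached -1.23 for Hspa13, an ER-associated HSP70, -1.13 for Dnajb9 and -1.01 for Dnajc21, each lower in 12 of 12 groups. Going the other way, Dnajc17 was higher by 1.09 and lower in 0 groups. Hspb1 was higher by 0.36. The arrays were picked on a component of these same values. These shifts and the counts of groups therefore follow in part from that choice.

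Few members changed in any comparison. Called means an adjusted p under 0.05 (limma, Benjamini-Hochberg over 45037 probe sets). Between diets, averaged over the exposures, 3 members were higher on LRD-5001 and 2 lower, or 6.94% of the members, where 4.26% of all probe sets were called. After dexamethasone 1 was higher and 2 were lower (1.74% of all probe sets called), and after dexamethasone with arsenite 2 were higher and 0 lower than after saline (0.926%). Arsenite injection called 0 members (0% of all probe sets), as did the 6 comparisons of arsenite in water or food against the control of the same diet, where 0.00888% of all probe sets were called at 100 ppb on AIN-76A and 0% in the other 5. In the median, members differed by 0.038 between diets, -0.0059 after dexamethasone, 0.034 after arsenite and 0.024 after both, beside medians over all probe sets of -0.011, -0.015, 0.0014 and -0.0084. These counts use 1 probe set per gene. Of the 102 other probe sets of members, 3 were called higher and 1 lower between diets, with 56 of the representative's sign. The same probe sets gave 1 higher and 1 lower after dexamethasone, with 71 of the representative's sign.

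**Figure D1:**
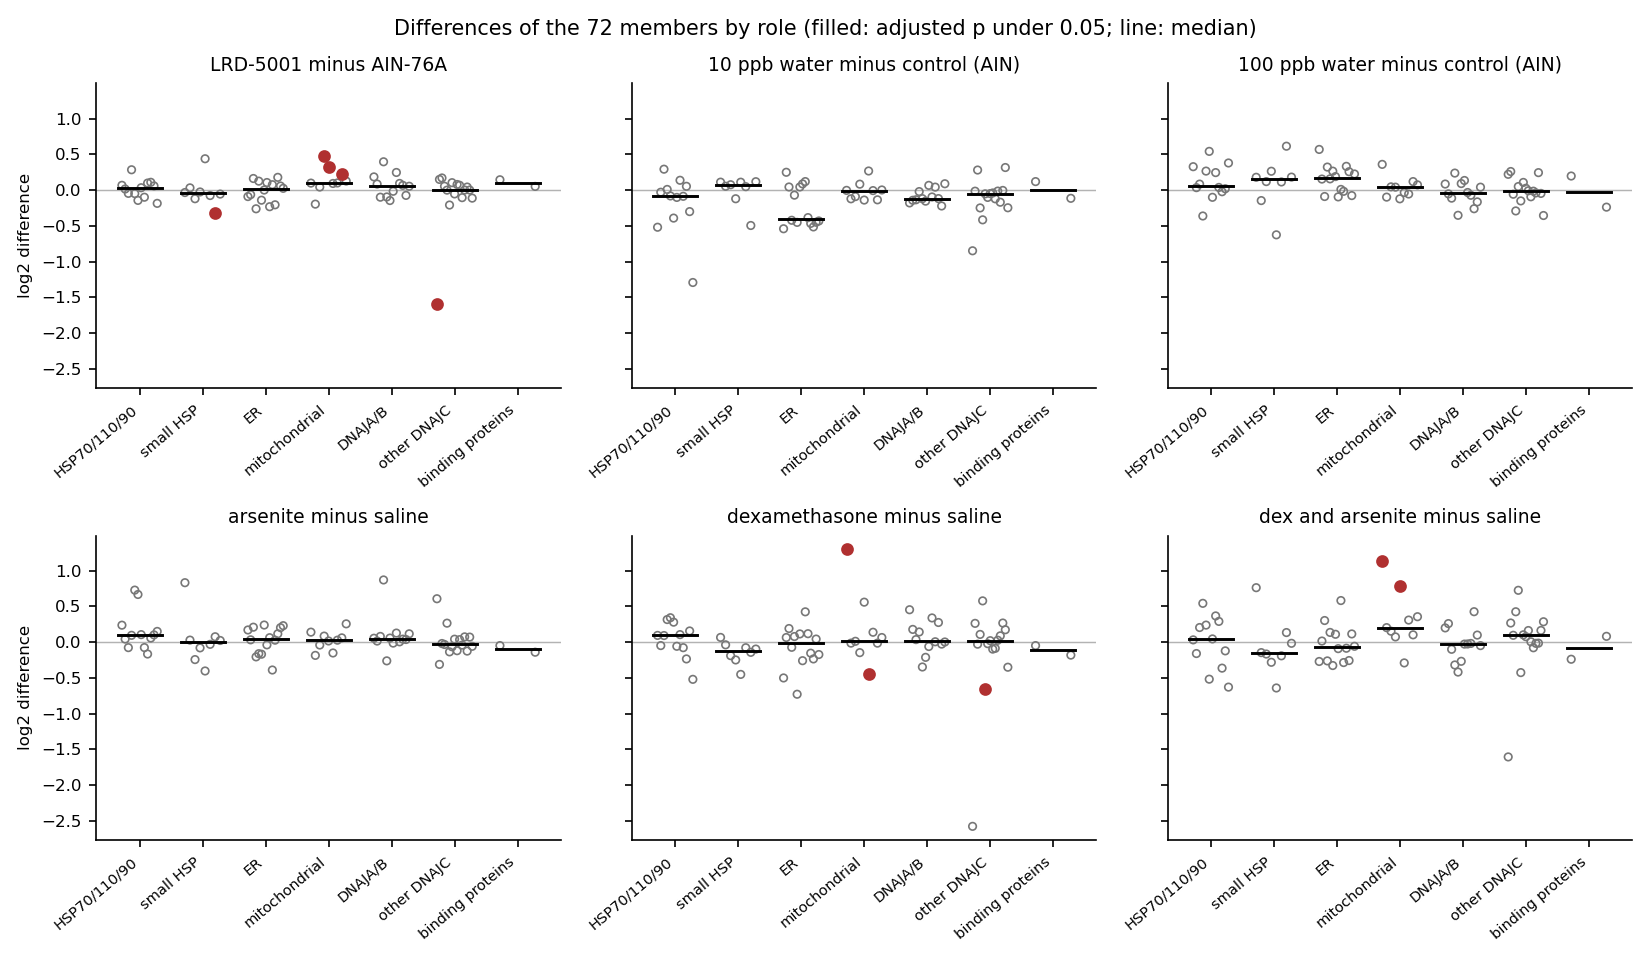
Log2 difference of each of the 72 members (points) by role for 6 comparisons, with called members filled and the median of each role as a line. Called members are Dnajc30, Hspd1, Dnajc28, Dnajc12 and Hspb8 between diets, Dnaja3, Dnajc22 and Dnajc4 after dexamethasone, and Dnaja3 and Dnajc30 after both agents; the ER chaperones have a median of -0.40 at 10 ppb in water on AIN-76A with none called.

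Dnaja3 was the member that rose after dexamethasone. It encodes the mitochondrial DnaJ protein that works with the mitochondrial HSP70 Hspa9. Values given by array follow the replicate letters, which are A, B, C, E and F for saline, A, B, D, E and F for arsenite, and A, C, D, E and F for dexamethasone and for both agents. The saline arrays read 8.20, 8.91, 8.56, 8.23 and 7.92. After dexamethasone they read 9.78, 9.50, 9.64, 9.71 and 9.67. Every dexamethasone array lay above every saline array, and the rise was 1.30 (SE 0.196, 2.46-fold, adjusted p = 0.00109, limma). A second probe set of the gene gave 1.24 (adjusted p = 0.00543), and another, with a mean of 2.09 near the bottom of the scale, gave -0.0008. Arsenite alone left Dnaja3 at 8.85, 8.41, 8.40, 8.61 and 8.24, a difference from saline of 0.14 (95% confidence interval -0.27 to 0.55) that was not called. With both agents it read 9.29, 10.13, 9.68, 8.85 and 9.53. Against saline the rise with both agents was 1.13 (SE 0.196, adjusted p = 0.00618), with the lowest array, 8.85, just below the highest saline array, 8.91; fitted on these groups alone the adjusted p was 0.084. Against arsenite it was 0.99 (SE 0.196, adjusted p = 0.0157), without overlap, and with an adjusted p of 0.107 on these groups alone. The dexamethasone comparison and the comparison of both agents with saline share the saline arrays. In the 5-week groups Dnaja3 stayed within 7.84 to 9.23, below the lowest dexamethasone array of 9.50.

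Dnajc30, a mitochondrial membrane DnaJ protein associated with ATP synthase, was called with both agents. Saline arrays read 6.90, 6.61, 6.49, 6.47 and 6.15, and arrays with both agents read 7.50, 7.34, 6.95, 7.42 and 7.32. These groups did not overlap, and the difference was 0.78 (SE 0.168, 1.72-fold, adjusted p = 0.027). It was 0.66 (adjusted p = 0.14) without the arrays apart, and the call was also lost without array A, C or F of the combined group (adjusted p = 0.0601, 0.0745 and 0.055) or array C, E or F of the saline group (adjusted p = 0.0525, 0.0686 and 0.0942). Arsenite arrays read 6.87, 6.99, 6.45, 5.96 and 6.43, and the combined group exceeded them by 0.77 (adjusted p = 0.0313; 0.11 without the arrays apart, 0.165 on these groups alone). This call was lost without array A, C, E or F of the combined group or array D, E or F of the arsenite group (adjusted p from 0.0582 to 0.0848). Dexamethasone alone gave 7.07, 6.92, 7.32, 7.15 and 6.97, all above the saline arrays, with a difference of 0.56 (95% confidence interval 0.21 to 0.91, adjusted p = 0.116) that was not called; with all 59 arrays in the fit it was called (adjusted p = 0.00677). The combined group against dexamethasone alone differed by 0.22 (95% confidence interval -0.13 to 0.58), with 0 members called there, 2 at an unadjusted p under 0.05 and 0% of all probe sets called. The interaction of both agents called 0 members and 0% of all probe sets (limma), and 0 members reached an unadjusted p under 0.05.

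Dnajc22 and Dnajc4 fell after dexamethasone. Dnajc22 is a membrane DnaJ protein whose fly counterpart takes part in endocytosis. It read 7.77, 7.94, 7.93, 7.91 and 7.92 after saline and 7.13, 7.16, 7.06, 7.39 and 7.47 after dexamethasone, without overlap, and fell by 0.65 (SE 0.142, adjusted p = 0.0192). Its adjusted p was 0.071 without the arrays apart, and its second probe set differed by -0.49 (adjusted p = 0.209). With both agents it read 7.99, 7.19, 7.17, 7.73 and 7.27, with 3 of 5 arrays inside the dexamethasone range. Dnajc4, a mitochondrial DnaJ protein, read 6.21, 6.21, 5.89, 6.10 and 6.26 after saline and 5.54, 5.78, 5.61, 5.70 and 5.84 after dexamethasone, again without overlap. It fell by 0.44 (SE 0.107, adjusted p = 0.0392). This call was the least stable of the 3 and was kept in 7 of 20 alternatives; without the arrays apart the adjusted p was 0.107. Leaving out dexamethasone array A or D, or saline array F, left Dnaja3 as the sole call of this comparison.

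**Figure D2:**
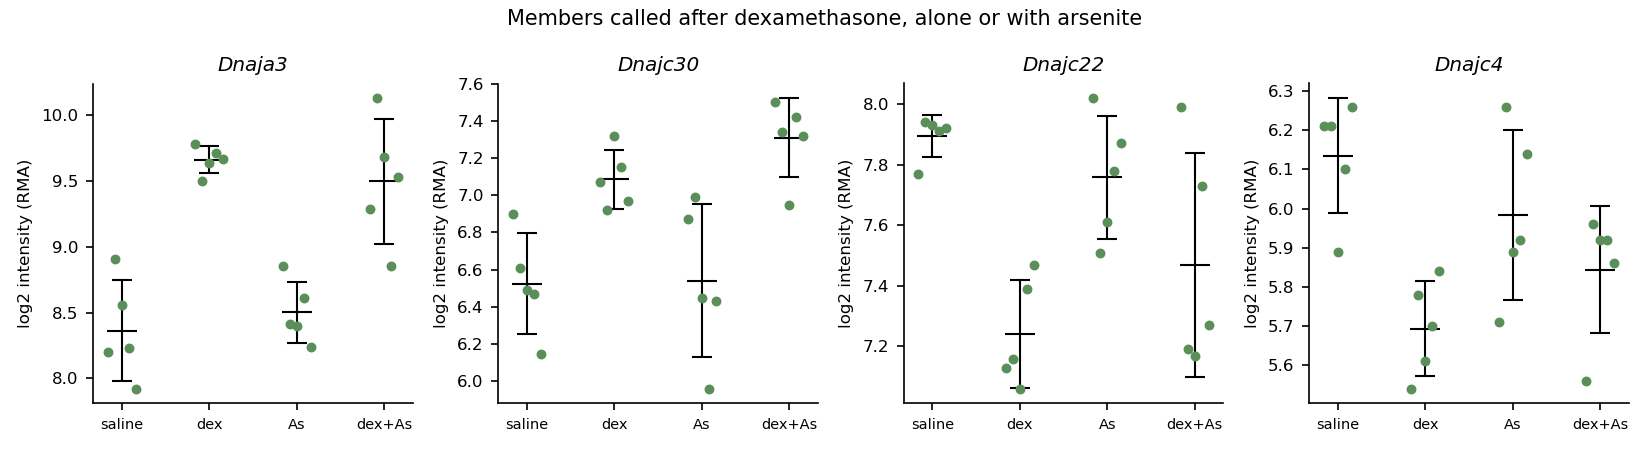
Log2 intensity of Dnaja3, Dnajc30, Dnajc22 and Dnajc4 on each of the 5 arrays of the saline, dexamethasone (dex), arsenite (As) and combined (dex+As) groups; horizontal marks and bars are means ± SD. Dnaja3 lies at 9.50 to 9.78 after dexamethasone and at 7.92 to 8.91 after saline, and Dnajc22 at 7.06 to 7.47 against 7.77 to 7.94.

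Dnajc12, a DnaJ protein that binds the aromatic amino acid hydroxylases, such as the liver's phenylalanine hydroxylase, had the widest range of all members over the 59 arrays. It read 7.75, 6.27, 9.03, 9.38 and 7.66 after saline and 6.08, 4.62, 5.23, 5.75 and 5.51 after dexamethasone. The groups did not overlap and the difference was -2.58 (95% confidence interval -4.47 to -0.69), but it was not called (adjusted p = 0.211). On the saline and dexamethasone arrays alone the adjusted p was 0.0222. Arsenite arrays read 10.45, 7.12, 5.96, 10.36 and 9.23, and arrays with both agents 9.25, 5.53, 5.30, 4.37 and 7.61. Both groups overlapped saline, and neither was called against saline. In all, 6 members did not overlap between dexamethasone and saline, 2 higher and 4 lower, where 3.81% of all probe sets did not overlap. Beside the members named, these included Dnajb13, which had values near the bottom of the scale.

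Known glucocorticoid target genes shifted after dexamethasone, but not all in the same direction. Of 10 such targets, 1 was called higher and 1 lower. Fkbp5 rose by 2.98 (adjusted p = 0.00565, limma), and Pck1, the gluconeogenic enzyme PEPCK, fell by 1.68 (adjusted p = 0.0295, limma). In all, 7 of the 10 were positive and 8 had an unadjusted p under 0.05. Of 24 genes of ER folding and the unfolded protein response other than members, 2 fell: the disulfide isomerase P4hb by 0.51 (adjusted p = 0.0356) and the prolyl isomerase Ppib by 0.71 (adjusted p = 0.0369). Among the 14 ER members 0 were called, with a median of -0.015; Dnajc10, an ER disulfide reductase, had the largest shift, -0.73 (adjusted p = 0.195). Of 14 subunits of the cytosolic chaperonin TRiC and of prefoldin, 0 were called after dexamethasone, 11 of 14 being positive with a median of 0.16. Against arsenite alone, Cct2, a subunit of TRiC, was 0.45 higher with both agents (adjusted p = 0.0436), and 13 of the 14 were positive. Of 12 mitochondrial folding genes and proteases 0 were called after dexamethasone (median 0.093), and of 21 HSF1-linked co-chaperone and stress genes 0 were (median -0.065). All 8 Kupffer cell markers had negative differences after dexamethasone (median -0.80), as had all 6 neutrophil markers (median -0.84), with 0 called in either list and 3 and 2 at an unadjusted p under 0.05; 5 of 7 hepatocyte markers were positive (median 0.056). Summed linear Kupffer cell signal ranged from 772 to 4167 after saline and from 730 to 1060 after dexamethasone. Summed neutrophil signal had a median of 76.3 after saline, with 1 array at 2198, and of 33.7 after dexamethasone. The part of these cells in the results above was not tested.

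Arsenite injection called 0 of 72 members and 0% of all probe sets (limma). At an unadjusted p under 0.05 there were 4 members (5.56%), beside 3.14% of all probe sets. The inducible genes were high on some arrays of the arsenite group and not on others. Hspa1b read 7.05, 6.88, 8.51, 7.37 and 6.47 after saline and 9.31, 6.42, 6.39, 8.49 and 9.0 after arsenite: arrays A and F of the arsenite group were above every saline array, E was just below the highest saline value, and B and D were below every saline array. The difference was 0.67 (95% confidence interval -0.42 to 1.76), and 0.32 without array A, 0.40 without F, 1.04 without B and 1.05 without D. Its other probe sets gave 0.60 and 0.75. Arsenite array D and saline array F, at 6.39 and 6.47, are among the arrays apart. In the arrays apart Hspa1b shifted by -0.41 on average and was lower in 8 of 12 groups. Hspa1a, near the bottom of the scale after saline at 2.25, 2.22, 2.35, 2.23 and 2.01, read 4.17, 2.27, 2.20, 2.59 and 3.48 after arsenite, high in the same arrays A and F. Its difference was 0.73 (95% confidence interval 0.11 to 1.35, adjusted p = 0.9999), and 0.42 without array A.

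In every arsenite array Hspb1 was above every saline array. It read 6.71, 6.99, 6.64, 7.15 and 6.87 after saline and 7.28, 8.51, 7.57, 7.25 and 7.91 after arsenite. The difference of 0.83 (95% confidence interval 0.085 to 1.58) was not called (adjusted p = 0.9999), and lay between 0.63 and 1.02 in the alternatives; its second probe set gave 1.02. Over all probe sets, 0.446% did not overlap between these groups, and 2 members did not: Hspb1 and Dnajb13 (-0.26). Hspb1 did not follow Hspa1b by array, since array B, with the lowest but one Hspa1b value, had the highest Hspb1 value, 8.51. With both agents Hspb1 read 6.35, 7.71, 7.07, 9.20 and 7.85, and with dexamethasone 6.58, 7.24, 7.15, 6.78 and 6.95. The combined group differed from saline by 0.76 (95% confidence interval 0.015 to 1.51, adjusted p = 0.497). Without array E of the combined group, which is among the arrays apart, it was 0.37.

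Dnajb1, the main cytosolic DnaJ partner of inducible HSP70, was at 6.21, 6.39, 6.68, 6.38 and 6.14 after saline and 7.52, 6.15, 5.92, 6.68 and 9.88 after arsenite. Array F at 9.88 and array A at 7.52 exceeded every saline array, and the difference was 0.87 (95% confidence interval -0.20 to 1.94). Without array F it was 0.21. Hsph1, an HSP110, read 7.33, 6.95, 8.57, 8.48 and 7.18 after saline and 8.91, 7.0, 6.47, 8.35 and 8.52 after arsenite, overlapping widely (0.15, 95% confidence interval -0.75 to 1.05). The other cytosolic HSP70 and HSP90 members Hspa8 and Hsp90aa1 differed by 0.10 and 0.24. Hspb2, a muscle small heat shock protein whose values were near the bottom of the scale, differed by -0.24. Of the 21 HSF1-linked genes 0 were called, and 0 had an unadjusted p under 0.05; 12 of 21 were positive with a median of 0.046. All 6 neutrophil markers had negative differences from saline (median -0.74, 0 called, 0 at an unadjusted p under 0.05, limma). Their summed signal nevertheless had the higher median after arsenite, 142.4, with a highest array of 342.2. After saline the median was 76.3, with array E at 2198. The part of these cells was not tested.

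With dexamethasone added to arsenite, Hspa1b covered 6.02 to 7.71 and Dnajb1 5.63 to 6.95, beside 6.39 to 9.31 and 5.92 to 9.88 with arsenite alone; the difference in spread was not tested. Hspa1b read 6.88, 6.67, 7.71, 6.02 and 6.4 with both agents and 7.62, 7.94, 8.00, 7.12 and 7.0 with dexamethasone alone. Dnajb1 read 5.63, 5.99, 6.95, 5.72 and 5.91 with both and 6.38, 7.24, 6.53, 6.26 and 6.10 with dexamethasone alone. Against arsenite alone, both agents gave -1.19 for Hspa1b (95% confidence interval -2.27 to -0.10, adjusted p = 0.426) and -1.19 for Dnajb1 (95% confidence interval -2.26 to -0.12, adjusted p = 0.409). For Dnajb1 it was -0.53 without arsenite array F. Neither was called, and the groups overlapped for both genes. Hsph1 read 7.05, 7.77, 7.50, 6.92 and 6.65 with dexamethasone and 6.86, 7.24, 7.74, 6.32 and 7.19 with both. Hspa1a read 2.47, 3.09, 2.61, 2.20 and 2.41 with dexamethasone, and 2.49, 2.37, 3.15, 2.08 and 2.18 with both. The interaction estimate was -1.46 for Hspa1b (SE 0.736) and -0.83 for Hspa1a (SE 0.421), each with an adjusted p of 0.9998.

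**Figure D3:**
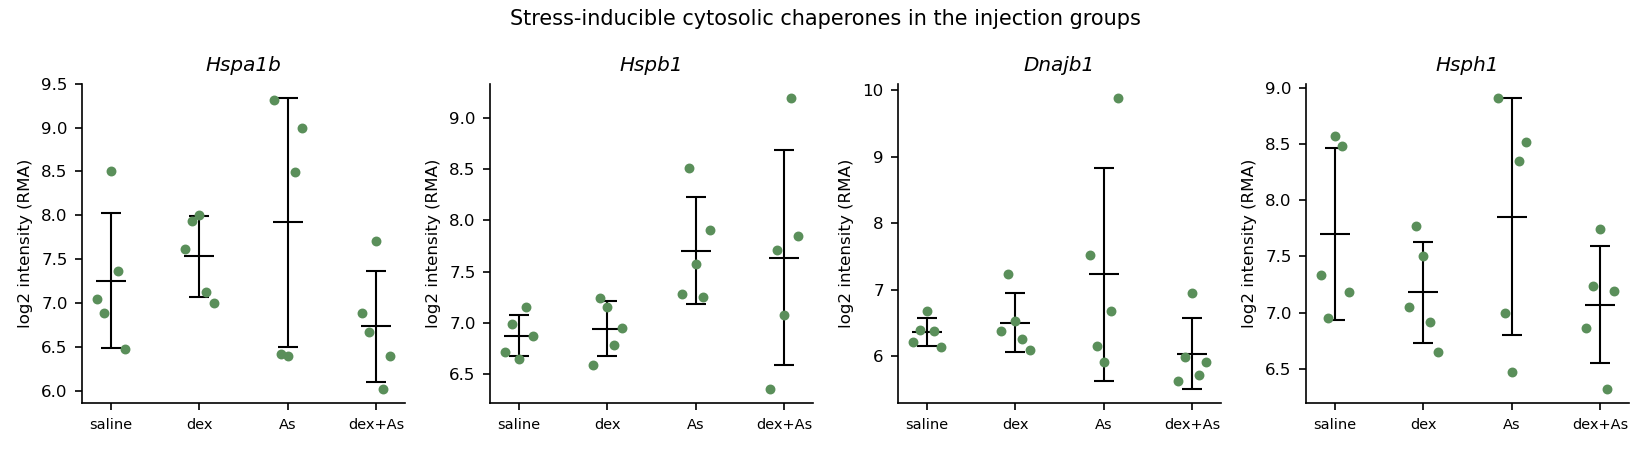
Log2 intensity of Hspa1b, Hspb1, Dnajb1 and Hsph1 on each of the 5 arrays of the 4 injection groups; horizontal marks and bars are means ± SD. Arsenite arrays of Hspa1b split between 6.39 and 9.31, and the 5 arsenite arrays of Hspb1 lie at 7.25 to 8.51, above the saline arrays at 6.64 to 7.15.

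Dnaja3 and Dnajc30 were the called members of the mitochondrial set with both agents. Of 9 mitochondrial members, 2 were called, 5 had an unadjusted p under 0.05 and 8 were positive, with a median of 0.20. Hspe1 differed by 0.36 (adjusted p = 0.291) and Hspa9, the mitochondrial HSP70, by 0.31 (adjusted p = 0.404). Over all members, 14 (19.4%) had an unadjusted p under 0.05 with both agents against saline, beside 9.78% of all probe sets, and 3 did not overlap, beside 2.18%. Hspa14, a ribosome-associated HSP70, was next to the threshold. It read 5.61, 5.89, 6.00, 5.45 and 5.70 after saline and 6.08, 6.22, 6.37, 6.31 and 6.38 with both, without overlap (0.54, adjusted p = 0.0534), and was called in 6 of 20 alternatives. Against arsenite 2 members were called where 0.881% of all probe sets were.

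Between the diets 3 of 9 mitochondrial members were called. On LRD-5001 these members, Dnajc30, Hspd1 and Dnajc28, were higher, while Dnajc12 and the small heat shock protein Hspb8 were lower. The mitochondrial members had a median difference of 0.10, and the one with a negative difference was Dnajc11 (-0.20, adjusted p = 0.102, limma), which was lower on LRD-5001 at each of the 4 exposures, by values from -0.28 to -0.14. Of the 14 ER members 0 were called. At an unadjusted p under 0.05 there were 13 members (18.1%), beside 14.3% of all probe sets. No member separated all arrays of one diet from all of the other (0 of 72, and 0.0622% of all probe sets).

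Dnajc30 on AIN-76A read 6.84, 7.06, 6.89, 6.86 and 6.73 in controls and 6.83, 6.44, 6.84, 6.68 and 6.89 at 10 ppb in water. It read 6.66, 6.79, 6.95 and 6.62 at 100 ppb in water and 7.14, 7.11, 6.79, 6.65 and 6.74 at 10 ppb in food. On LRD-5001 the same 4 exposures gave 6.81 to 7.36, 6.95 to 7.32, 7.0 to 7.29 and 7.04 to 7.38. The diets overlapped across arrays, and LRD-5001 was higher at each of the 4 exposures, by 0.21 to 0.40. Averaged, the rise was 0.32 (SE 0.0547, 1.25-fold, adjusted p = 0.000156).

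Hspd1, the HSP60 chaperonin of the mitochondrial matrix, read 10.37, 10.02, 10.34, 10.41 and 10.45 in AIN-76A controls and 10.48, 10.55, 10.66, 10.59 and 10.58 in LRD-5001 controls. These groups did not overlap. With arsenite it covered 9.85 to 10.63 on AIN-76A and 10.20 to 10.70 on LRD-5001. The averaged rise was 0.23 (SE 0.0504, 1.17-fold, adjusted p = 0.00384), and LRD-5001 was higher at each exposure, by 0.12 to 0.35. Its partner Hspe1 differed by 0.13 (95% confidence interval -0.0022 to 0.26). Dnajc28, a mitochondrial DnaJ protein of low signal, read 3.85, 3.55, 3.69, 3.60 and 3.57 in AIN-76A controls and 3.35, 4.17, 4.21, 4.46 and 4.24 in LRD-5001 controls. At 100 ppb it read 4.35, 3.33, 3.33 and 3.76 on AIN-76A and 4.53, 4.48, 4.73, 4.45 and 4.29 on LRD-5001. In water at 10 ppb it read 3.60, 3.87, 3.60, 4.11 and 3.50 on AIN-76A and 4.06, 3.97, 4.64, 3.83 and 3.92 on LRD-5001, with overlap. In food AIN-76A arrays read 3.99, 4.06, 2.85, 3.55 and 3.72, and LRD-5001 arrays 4.15, 3.26, 3.88, 4.46 and 4.09. Averaged it rose by 0.48 (SE 0.111, adjusted p = 0.00588), and its second probe set by 0.36 (adjusted p = 0.0409). After injection Dnajc28 read 3.43, 3.98, 3.42, 3.63 and 2.98 with saline, 3.46, 2.55, 3.27, 3.51 and 3.93 with dexamethasone, 3.73, 3.78, 3.42, 3.42 and 3.52 with arsenite and 4.61, 3.13, 3.58, 2.91 and 3.59 with both, all groups overlapping.

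Dnajc12 was lower on LRD-5001, and its arrays on AIN-76A covered a wider range. Controls read 6.76, 9.96, 6.06, 9.35 and 9.42 on AIN-76A and 5.57, 6.30, 6.43, 5.80 and 6.12 on LRD-5001. At 10 ppb in water AIN-76A arrays read 9.39, 6.67, 7.36, 7.72 and 6.18, and LRD-5001 arrays 6.74, 6.68, 6.61, 6.25 and 5.95. At 100 ppb AIN-76A arrays read 5.95, 10.22, 10.15 and 7.80, and LRD-5001 arrays 6.25, 6.60, 5.59, 6.63 and 7.20. In food AIN-76A arrays read 8.93, 8.53, 6.04, 8.05 and 8.50, and LRD-5001 arrays 6.30, 7.27, 8.69, 6.43 and 6.21. The highest LRD-5001 array read 8.69 and the next 7.27. Above 7.27, a cut taken from these same values, lay 13 of 19 AIN-76A arrays. Averaged, Dnajc12 fell by 1.60 (SE 0.358, 0.33-fold, adjusted p = 0.00419), with differences of -2.27, -1.02, -2.08 and -1.03 in controls, at 10 ppb in water, at 100 ppb and in food. In the controls alone 0 members were called (limma; 0.568% of all probe sets called), 5 had an unadjusted p under 0.05 (7.21% of all probe sets), and Dnajc12 had an adjusted p of 0.201. The members that did not overlap between the controls were Hspb8, Hspd1 and Dnajc9, or 3 of 72, beside 1.85% of all probe sets.

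Hspb8, a small heat shock protein that works with the co-chaperone Bag3, was called lower by 0.32 (SE 0.094, adjusted p = 0.0456), a call kept in 15 of 48 alternatives. It read 7.97, 8.30, 8.08, 8.49 and 8.61 in AIN-76A controls and 7.71, 7.72, 7.93, 7.86 and 7.82 in LRD-5001 controls. Its diet difference was -0.48 in controls, -0.94 at 100 ppb, -0.017 in food and 0.18 at 10 ppb in water, so that 3 of 4 exposures were negative. Without AIN-76A 100 ppb array D the adjusted p was 0.0947, and without the arrays apart 0.129. Its other probe sets differed by -0.27 and -0.22 and were not called. Bag3 itself differed by -0.38 (adjusted p = 0.0506).

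Among the companion lists, 2 of 12 mitochondrial folding genes and proteases were higher on LRD-5001: the protease Afg3l2 by 0.28 (adjusted p = 0.0171) and Grpel1, the nucleotide exchange factor of mitochondrial HSP70, by 0.14 (adjusted p = 0.0391). Of 24 ER genes, the pseudokinase Trib3 rose by 0.86 (adjusted p = 0.000828) and the disulfide isomerase Pdia6 fell by 0.28 (adjusted p = 0.0444). Of 21 HSF1-linked genes and of 14 TRiC and prefoldin genes 0 were called, with 3 and 0 at an unadjusted p under 0.05. Of 10 glucocorticoid targets 3 were lower on LRD-5001: Igfbp1 by 1.56 (adjusted p = 0.00172), Cdkn1a by 1.02 (adjusted p = 0.00411) and Zbtb16 by 0.54 (adjusted p = 0.0188). Markers of other cells moved with diet: 3 of 8 Kupffer cell, 2 of 6 neutrophil and 1 of 4 B cell markers were called lower, and all 8 Kupffer cell markers were negative (median -0.37). Their part in the differences between diets was not tested.

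**Figure D4:**
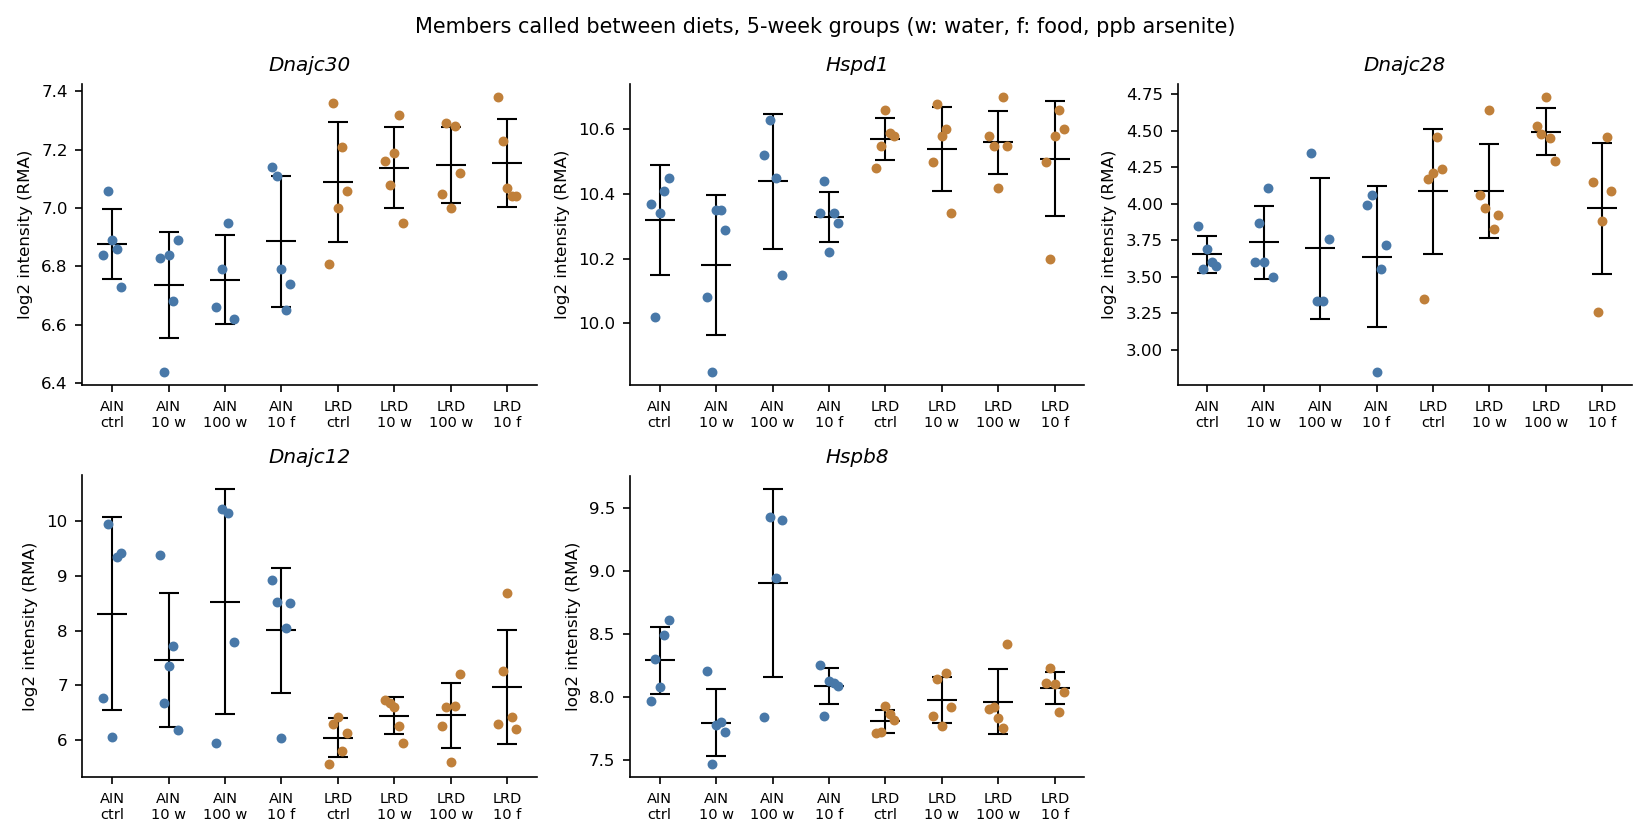
Log2 intensity of Dnajc30, Hspd1, Dnajc28, Dnajc12 and Hspb8 on each array of the 8 groups of the 5-week experiment, with means ± SD; AIN-76A in blue, LRD-5001 in orange. Dnajc12 spreads from 5.95 to 10.22 on AIN-76A, and its highest but one array on LRD-5001 lies at 7.27.

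For arsenite in water or food the members gave no call, and the ER set lay below the controls in the median at 10 ppb in water on AIN-76A. There 9 members (12.5%) had an unadjusted p under 0.05, 2 higher and 7 lower, beside 4.84% of all probe sets. The low values were not confined to the ER set. Of all 72 members 24 were positive (33.3%), beside 51% of all probe sets. Cytosolic members such as Hspa8, Hsp90aa1 and Hsph1 also had their lowest group mean here. The 14 ER members had a median of -0.40, with 5 positive and 4 at an unadjusted p under 0.05. Hspa5 read 11.13, 11.31, 11.30, 11.62 and 11.55 in controls and 11.09, 10.36, 10.78, 10.96 and 11.57 at 10 ppb. Hsp90b1 read 9.97, 10.36, 10.44, 10.87 and 10.19 in controls and 10.08, 9.10, 9.72, 10.01 and 10.35 at 10 ppb. In both genes array C, which is among the arrays apart, was the lowest at 10 ppb, and both groups overlapped. Dnajb11 and Dnajc3, DnaJ partners of Hspa5, differed by -0.54 and -0.47. Without the arrays apart the differences became -0.30 for Hspa5, -0.33 for Hsp90b1, -0.42 for Dnajb11 and -0.36 for Dnajc3.

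Hsph1 shifted most at this dose. It read 6.25, 7.50, 7.35, 7.71 and 7.70 in controls and 6.56, 4.13, 5.82, 6.23 and 7.30 at 10 ppb. The difference was -1.29 (95% confidence interval -2.17 to -0.41, adjusted p = 0.993) and -0.77 without the arrays apart. The 2 members that did not overlap (0.508% of all probe sets) were Dnajc8, a splicing-associated DnaJ protein (0.32), and Hspa8, the constitutive HSP70 (-0.30). Dnajc8 was 0.20 without the arrays apart, and -0.14 by its probe set with the widest interquartile range. Hspb8 differed by -0.49, and Hspb1 by 0.11. Of the 24 other ER genes, 5 were positive with a median of -0.20 and 0 called, and of 21 HSF1-linked genes 4 were positive with a median of -0.17 and 0 called.

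At 100 ppb in water on AIN-76A the differences of Hspa5 and Hsp90b1 were positive and not called. Hspa5 read 11.15, 11.93, 11.77 and 11.60 and Hsp90b1 10.20, 11.06, 10.90 and 10.35, with differences of 0.23 (95% confidence interval -0.15 to 0.60) and 0.26 (95% confidence interval -0.18 to 0.70). The 14 ER members had a median of 0.17, with 10 positive. Hsph1 read 6.57, 7.52, 8.12 and 8.51 there. With 10 ppb in food Hsph1 read 6.21, 6.21, 7.11, 7.28 and 6.76, Hspa5 read 11.01, 11.05, 11.26, 11.48 and 11.19, and Hsp90b1 read 10.48, 9.84, 10.11, 10.57 and 10.17. The 10 and 100 ppb comparisons share the control arrays. Hspb8 gave the smallest p at 100 ppb, with arrays of 7.84, 9.43, 8.95 and 9.41 and a difference of 0.61 (adjusted p = 0.261). Without array A of this group it was 0.97 and called (adjusted p = 0.000419, limma). That was the 1 call in 19 alternatives, in which the difference reached down to 0.26. The next members were Dnajb13 (-0.35) and Hspa1a (0.27, arrays 2.51, 2.15, 2.61 and 2.67); Hspb1 differed by 0.18, with its sign turned in 3 alternatives (-0.42 without the arrays apart). In all, 5 members (6.94%) had an unadjusted p under 0.05 at 100 ppb, beside 8.87% of all probe sets, and Dnajb13 and Dnajc9, both lower, did not overlap the controls, beside 1.69% of all probe sets. Summed neutrophil marker signal had a median of 319 in this group and 74.6 in the controls, and its part was not tested.

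With 10 ppb in food on AIN-76A, 1 member had an unadjusted p under 0.05 (Dnajc6, -0.23), beside 3.63% of all probe sets. On LRD-5001, 0 members had an unadjusted p under 0.05 at 10 ppb in water, at 100 ppb in water or at 10 ppb in food, beside 2.34%, 2.34% and 2.29% of all probe sets. Groups without overlap with the controls were seen for 0, 1 (Dnajc14) and 1 (Dnajc10) members, beside 0.622%, 0.695% and 0.522% of all probe sets. LRD-5001 controls read 11.46, 10.96, 11.33, 11.02 and 11.03 for Hspa5 and 10.53, 10.25, 10.59, 10.37 and 10.16 for Hsp90b1. Hspa5 then read 11.33, 11.59, 11.42, 11.43 and 10.86 at 10 ppb in water, 11.01, 11.30, 11.32, 11.58 and 11.66 at 100 ppb and 11.55, 11.24, 11.75, 11.11 and 11.24 in food. These groups overlapped the controls, and the differences were 0.17, 0.21 and 0.22, each with an SE of 0.173. Hsp90b1 read 10.43, 10.69, 10.34, 10.87 and 10.14 at 10 ppb in water, 10.21, 10.34, 10.63, 10.66 and 10.15 at 100 ppb, and 10.65, 10.51, 10.94, 9.94 and 10.57 in food. Hspb1 differed by 0.075, -0.043 and -0.030 (SE 0.302) in these groups, and Hspa1a by -0.010, -0.061 and -0.0064 (SE 0.104). The interaction of diet with 100 ppb called 0 members and 0% of all probe sets (limma), and 2 members reached an unadjusted p under 0.05: Hspa1a (-0.33, adjusted p = 0.814) and Hspb3 (-0.39, adjusted p = 0.814).

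**Figure D5:**
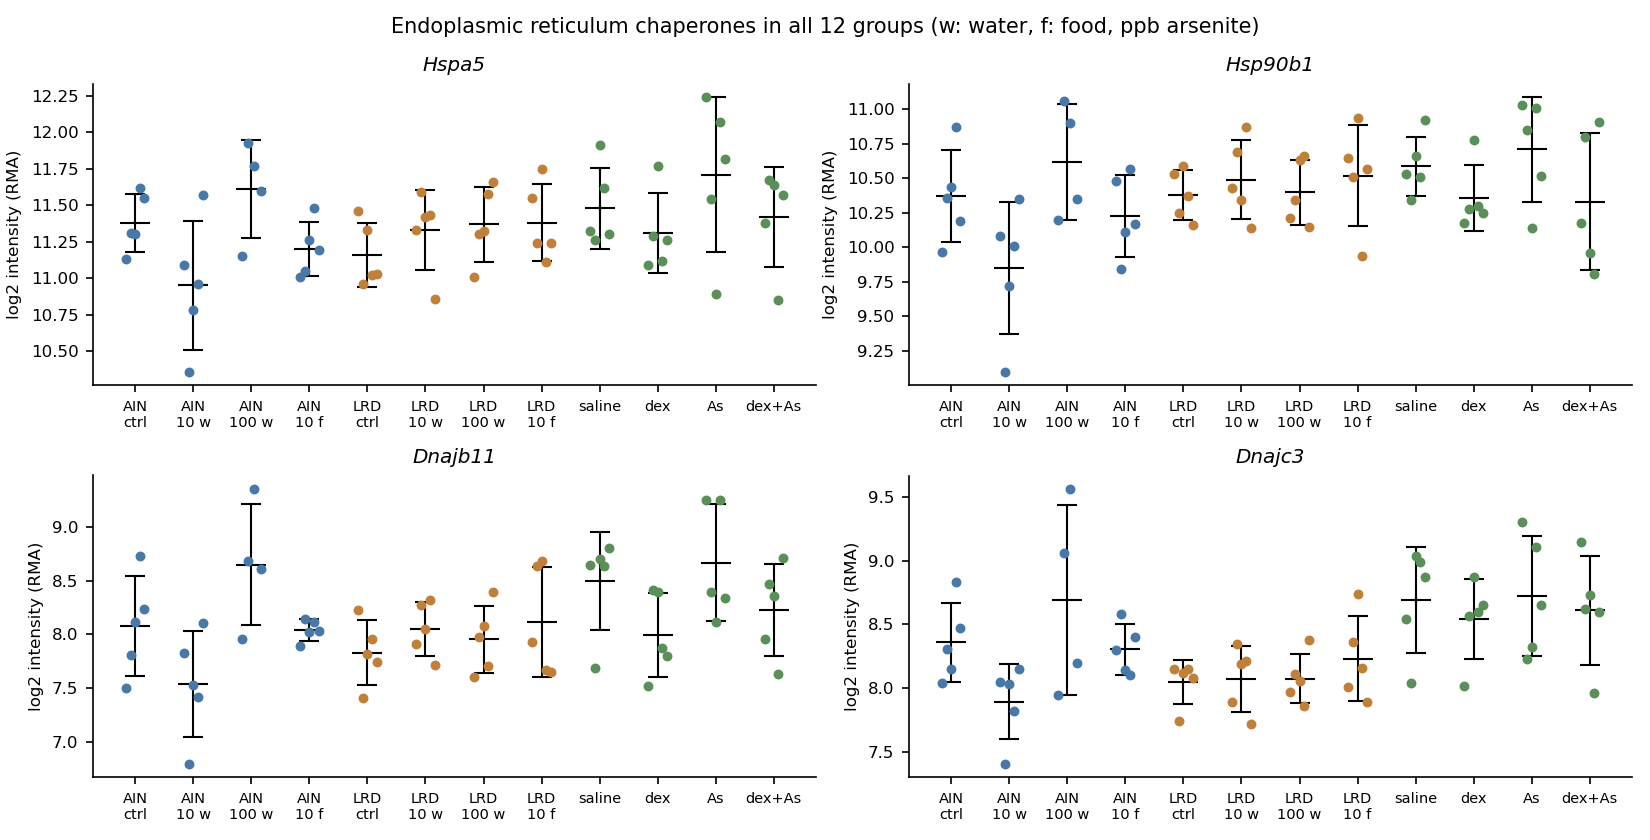
Log2 intensity of the ER chaperones Hspa5, Hsp90b1, Dnajb11 and Dnajc3 on each array of all 12 groups, with means ± SD; AIN-76A in blue, LRD-5001 in orange, injections in green. The group mean of each gene is lowest at 10 ppb in water on AIN-76A, at 10.95 for Hspa5 and 9.85 for Hsp90b1, with overlap between the groups.

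After injection no group of arrays stood out for the ER pair. Hspa5 read 11.32, 11.26, 11.91, 11.62 and 11.30 with saline, 11.09, 11.29, 11.77, 11.12 and 11.26 with dexamethasone, 12.24, 11.54, 10.89, 12.07 and 11.82 with arsenite and 11.38, 11.67, 11.64, 10.85 and 11.57 with both. Hsp90b1 read 10.53, 10.34, 10.66, 10.51 and 10.92 with saline, 10.18, 10.28, 10.78, 10.30 and 10.25 with dexamethasone, 11.03, 10.85, 10.14, 11.01 and 10.52 with arsenite, and 10.18, 10.80, 9.96, 9.81 and 10.91 with both. All 4 groups overlapped for each gene. In the arsenite group, array D was the lowest and array A the highest for both. Against saline, arsenite differed by 0.23 for Hspa5 (95% confidence interval -0.23 to 0.69) and 0.12 for Hsp90b1 (95% confidence interval -0.32 to 0.55); dexamethasone differed by -0.17 and -0.23, and both agents by -0.058 and -0.26. Without the arrays apart, arsenite differed by 0.39 for Hspa5 and 0.34 for Hsp90b1, dexamethasone by -0.13 for Hsp90b1, and both agents by 0.041 for Hspa5 and -0.047 for Hsp90b1. None of these was called. Dnajb9, an ER DnaJ protein that binds the stress sensor IRE1, read 8.86, 8.83, 10.08, 8.54 and 8.19 with saline, 8.77, 8.41, 9.55, 8.49 and 8.92 with dexamethasone, 9.40, 8.79, 7.29, 9.41 and 8.59 with arsenite and 8.87, 9.02, 8.76, 7.73 and 8.82 with both. The lowest of the arsenite and of the combined arrays are among the arrays apart.

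Among the other members, single arrays stood out more than groups. Dnajb9 controls read 8.82, 7.71, 8.61, 7.81 and 8.29 on AIN-76A and 6.87, 7.80, 8.45, 7.87 and 7.69 on LRD-5001, and its arsenite groups covered 5.70 to 9.50 on AIN-76A and 6.71 to 8.64 on LRD-5001. Hspb6, a small heat shock protein of muscle, read 4.72, 3.81, 5.12, 5.02 and 5.09 in AIN-76A controls and 5.08, 5.11, 4.91, 5.77 and 4.84 in LRD-5001 controls. At 10 ppb in water it read 5.09, 4.35, 5.36, 4.59 and 4.94 on AIN-76A and 5.43, 5.27, 5.17, 5.46 and 4.94 on LRD-5001. At 100 ppb AIN-76A arrays read 3.98, 3.52, 4.94 and 4.09, and LRD-5001 arrays 5.35, 5.62, 5.16, 5.24 and 5.25. In food AIN-76A arrays read 5.17, 4.89, 7.99, 4.67 and 4.38, and LRD-5001 arrays 5.55, 5.19, 4.95, 5.33 and 5.03. A single food array on AIN-76A, D at 7.99, stood far above the rest. The same array had the highest summed signal of the 5 muscle markers in its group, 4578 beside a group median of 32.7, and of the 2 fat markers, 156.1 beside 8.19; their part in the Hspb6 value was not tested. The diet difference of 0.44 (95% confidence interval 0.045 to 0.83) was not called, and was called without the arrays apart, of which D is a member. After injection Hspb6 read 5.00, 4.74, 4.61, 4.85 and 5.50 with saline, 4.30, 4.26, 4.79, 4.69 and 4.40 with dexamethasone, 4.85, 5.21, 4.08, 4.02 and 4.51 with arsenite, and 3.66, 4.91, 4.19, 3.89 and 4.84 with both. Dnajb1 controls read 6.01, 4.05, 6.11, 6.17 and 6.15 on AIN-76A and 6.28, 6.32, 6.74, 6.14 and 5.89 on LRD-5001, with array C of AIN-76A as the low outlier. Hspa1b controls read 7.15, 6.02, 6.74, 6.80 and 6.51 on AIN-76A, and 6.58, 6.91, 7.15, 6.42 and 6.09 on LRD-5001. With arsenite in water or food Hspa1b covered 5.82 to 7.66 on AIN-76A and 5.50 to 7.51 on LRD-5001. Both ranges lay below the highest saline-injected array as well as the highest arsenite-injected array, which come from the other experiment. Hspb1 controls read 7.03, 5.50, 7.73, 6.96 and 7.39 on AIN-76A, and 7.66, 6.68, 7.0, 7.34 and 6.58 on LRD-5001.

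Saline-injected mice were compared with the uninjected AIN-76A controls, a comparison in which injection and experiment cannot be told apart. It called 0 of 72 members (limma; 0% of all probe sets); 5 members reached an unadjusted p under 0.05, beside 4.42% of all probe sets. The 3 smallest p belonged to Dnajc30 (-0.35), Dnajc1 (0.26) and Dnajb7 (-0.24). Of the 72 members 52 were positive (72.2%, median 0.079), beside 49% of all probe sets (median -0.003). Hspa5 differed by 0.10 and Hsp90b1 by 0.22.

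Within groups, some pairs of members varied together from array to array. For the 66 pairs among the 12 members given in every array, values with the group mean removed were correlated over the 59 arrays, with 100000 permutations within groups, and 19 pairs had an adjusted p under 0.05 by both Pearson's r and Spearman's rho, 18 of them positive. The strongest pair crossed compartments: Hspa5 with Hsph1 had r = 0.849 and rho = 0.82 (permutation p = 1e-05, which is the lowest value 100000 draws allow, adjusted p = 0.000165), with r = 0.823 once the 2 arrays farthest from the median of the pair's first gene by alphabet were left out and 0.856 without the arrays apart. Hsp90b1 with Hspa5 had r = 0.72 and rho = 0.651 (permutation p = 1e-05, adjusted p = 0.000165; 0.701 and 0.657 in the same checks). Among HSF1 genes, Hspa1b correlated with Hspa1a (r = 0.715, rho = 0.623, permutation p = 1e-05) and with Dnajb1 (r = 0.68, rho = 0.712, permutation p = 1e-05), and these gave 0.638 and 0.696 without the 2 farthest arrays and 0.674 and 0.613 without the arrays apart; each had an adjusted p of 0.000165. Cross-hybridisation between the near-identical copies Hspa1a and Hspa1b was not tested. The single negative pair was Dnajc28 with Hsph1 (r = -0.352, rho = -0.421, permutation p = 0.00429, adjusted p = 0.0157; -0.347 without the 2 farthest arrays and -0.57 without the arrays apart). Hspb1 correlated with Hspb6 (r = 0.438, rho = 0.462, permutation p = 0.0056, adjusted p = 0.0185; 0.491 and 0.585 in the same checks), and its pair with Hspa1b was not among the 19. All arrays of a group share diet and treatment, and the members share the array, so these values describe the arrays. Pairs of other genes were not correlated, so the count of 19 has no share over all genes beside it.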

How the data were processed

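The authors deposited log2 expression values of 45101 probe sets on 59 Affymetrix arrays, made with RMA, per the submitters' processing notes; its version is not given in the sources used here. RMA in its usual form corrects background, quantile-normalizes and summarises probes, which compresses differences near the bottom of the scale. These values were used as deposited, after 64 control probe sets were left out. Differences were tested with limma 3.58.1 in R 4.3.3 over 45037 probe sets with Benjamini-Hochberg adjustment, in a fit of the 39 arrays of the 5-week experiment and another of the 20 injection arrays; saline was set against the AIN-76A controls in a fit of all 59. The script was tested on simulated data. Groups come from the labels, which call the arrays biological replicates. Precision is limited by how few arrays each group has.

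The members, roles, and pathway and cell type lists were chosen with earlier results of these data known. Every member called by its representative probe set was named. Where fewer than 3 were called, the 3 of smallest p were named too. Values in every array are given for the 4 marker genes and 8 further members. The alternatives were other sets of arrays in the fit, quantile normalization, filters, another probe set per gene, a replicate block, the arrays apart, and each array left out. Replicate letters are shared across groups, and the labels do not say that they pair mice. Promoter sequences are from RefSeq. An entry with several symbols, holding Dnajc19, was left out.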

Additional observations from a re-analysis of the deposited data

Results flagged for a closer look

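For the 12 members given in every array, 144 groups were searched for an array far from the rest, taking its gap to the nearest array relative to the range of the group. In 15 groups 1 array stood out, 7 of them being arrays apart, and chance gives about 1 in 20 groups. Dnajb1 was low in AIN-76A control C at 4.05 (others 6.01 to 6.17), and high in LRD-5001 10 ppb food C at 7.97 (others 5.84 to 6.23) and in array D with both agents at 6.95 (others 5.63 to 5.99). Dnajb9 was low in AIN-76A 10 ppb water C at 5.7 (others 7.97 to 8.71), in LRD-5001 100 ppb water D at 6.71 (others 7.97 to 8.37) and in array E with both agents at 7.73 (others 8.76 to 9.02). Hspb6 was high in AIN-76A 10 ppb food D at 7.99 (others 4.38 to 5.17) and in LRD-5001 control E at 5.77 (others 4.84 to 5.11). The AIN-76A food array also had the highest summed muscle and fat marker signals of its group, 4578 and 156.1 beside group medians of 32.7 and 8.19. Dexamethasone array D was high for both ER chaperones, with Hspa5 at 11.77 (others 11.09 to 11.29) and Hsp90b1 at 10.78 (others 10.18 to 10.3). Dnajc28 was low in LRD-5001 control B at 3.35 (others 4.17 to 4.46) and high in LRD-5001 10 ppb water D at 4.64 (others 3.83 to 4.06). Hsph1 was low in AIN-76A control B at 6.25 (others 7.35 to 7.71). Dnaja3 was high in LRD-5001 10 ppb water A at 8.91 (others 8.43 to 8.53), and Hspa1a in LRD-5001 control C at 2.55 (others 2.12 to 2.18).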

How the results depend on the processing

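Counts of called members moved past 1.5 times in these settings. Dexamethasone against saline gave 6 on the groups compared alone (Dnaja3, Dnajb13, Dnajc10, Dnajc12, Dnajc22 and Dnajc4) and 1 with the 12 arrays apart left out. Both agents against saline gave 1 on the groups compared alone, 4 when each gene kept 1 probe set, 4 after quantile normalization and 5 with the arrays apart as a term. Both agents against arsenite gave 0 on the groups compared alone, and 1 without the arrays apart. The diet in controls gave 1, Hspd1, with the arrays apart as a term, and the diet over all exposures gave 9 without them. With each array left out in turn, the count ranged from 1 to 3 for dexamethasone, from 1 to 4 for both agents against saline, from 1 to 2 against arsenite, and from 0 to 1 for 100 ppb in water on AIN-76A. Dnajc8 at 10 ppb in water on AIN-76A turned to -0.14 with the probe set of widest interquartile range. Hspb1 after dexamethasone turned to -0.11 with that probe set and to -0.00925 without the arrays apart, and ranged from -0.0092 to 0.16 with 1 array left out. Hspb1 at 100 ppb on AIN-76A was -0.42 without the arrays apart and ranged from -0.18 to 0.38. Hspa5 with both agents against saline was 0.041 without the arrays apart and ranged from -0.12 to 0.086. The cause was not tested. Same-lettered arrays had a median correlation of -0.032 over 111 pairs in the 5-week groups and 0.047 over 25 after injection (lowest -0.418 and -0.284). For arrays of other letters the medians were 0.0096 and 0.0049. Of 59 arrays, 16 correlated best with their own letter, a count given without a chance value. With a replicate block, Hspb8 between diets (-0.33, adjusted p = 0.0539, limma) and Dnajc4 after dexamethasone (adjusted p = 0.0791) were no longer called. Dnaja3 after dexamethasone was called in 20 of 20 alternatives, and Dnajc12, Dnajc28, Dnajc30 and Hspd1 between diets in 48 of 48. Quantile normalization shifted the median of all probe sets by under 0.1 in each comparison.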
